A study of Saccharomyces cerevisiae with 2 samples.

Results

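PHO8 (YDR481C) encodes the vacuolar alkaline phosphatase of the budding yeast Saccharomyces cerevisiae, and the nucleosome map of its locus was compared here between phosphate-starved cells and cells returned to phosphate. It was taken as 1 gene of the 6477 in the gene table used for names, with a window of 13 kb around it on chromosome 4, from 1413001 to 1426000 in the coordinates of the deposited tags (build sacCer1). The coding span, on the minus strand, was taken as 1418544 to 1420244 and the promoter span as 1420245 to 1421200. These borders are good to about 50 bp. They were set by position and not by the measured levels. Of the nuclear tags, 1193 of 1001229 in the starvation library and 2741 of 2598022 in the high phosphate library fell in the window.

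Both libraries came from a strain with MYC-tagged Pho4 (PHO4-MYC::TRP1) and HA-tagged Cbf1 (CBF1-3HA::LEU2), so the controls carried the tags too. Log-phase cells were held for 3 hours without phosphate. For the last 80 minutes before harvest the medium held either 0 mM phosphate, called starvation here, or 10 mM, called high phosphate. The high phosphate cells had therefore also been starved first. Chromatin was cut with micrococcal nuclease, which digests the linker DNA between nucleosomes, and gel-purified mononucleosomal DNA was sequenced without an antibody. With 1 library for each condition, no test could be made between them, and effects of the library and of phosphate cannot be told apart.

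Pho8 sits in the membrane of the vacuole, the storage and degradation compartment of yeast, and frees phosphate from organic substrates there. When phosphate runs out, the cyclin-dependent kinase complex Pho80-Pho85 is inhibited, Pho4 stays in the nucleus, and with the homeodomain protein Pho2 it activates the phosphate-starvation genes, PHO8 among them. The promoters of PHO5 and PHO8 are textbook cases of chromatin that is remodelled on activation, and at PHO8 this remodelling is known to depend on the SWI/SNF and SAGA complexes. In a nuclease map, a well-placed nucleosome appears as a peak of tags and an accessible stretch as a trough.

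The starvation library held more nucleosomal tags over the PHO8 promoter and coding spans than the high phosphate library, relative to each library's nuclear total. The promoter span of 956 bp held 203 tags in starvation and 193 in high phosphate. Relative to the nuclear mean per bp, this was 2.55 in starvation (95% exact Poisson interval 2.21 to 2.93) and 0.935 in high phosphate (0.808 to 1.08). The starvation level was therefore 2.73 times the high phosphate level, a log2 ratio of 1.45 (95% exact conditional binomial interval 1.16 to 1.74). High phosphate stood near the nuclear mean, so the contrast lay in the starvation library. The known remodelling of the PHO8 promoter lowers its nucleosome occupancy in starvation, and the direction here was the opposite. The comparison is a loose one. The value here is a share of nuclear tags over 956 bp, and the high phosphate cells had also been starved first. Whether each library carries the right label was not tested, and every direction given here rests on the labels.

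The coding span of 1701 bp showed nearly the same picture. It held 346 tags in starvation and 378 in high phosphate, which is 2.44 (2.19 to 2.72) and 1.03 (0.928 to 1.14) times the nuclear mean. The log2 ratio was 1.25 (1.03 to 1.46). The promoter and coding ratios were not separable by counting error, with a log2 odds ratio between them of 0.20 (exact conditional interval −0.16 to 0.57). All these intervals cover counting error only. Tags are not independent molecules, and the spread between cultures was not measured.

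**Figure D1:**
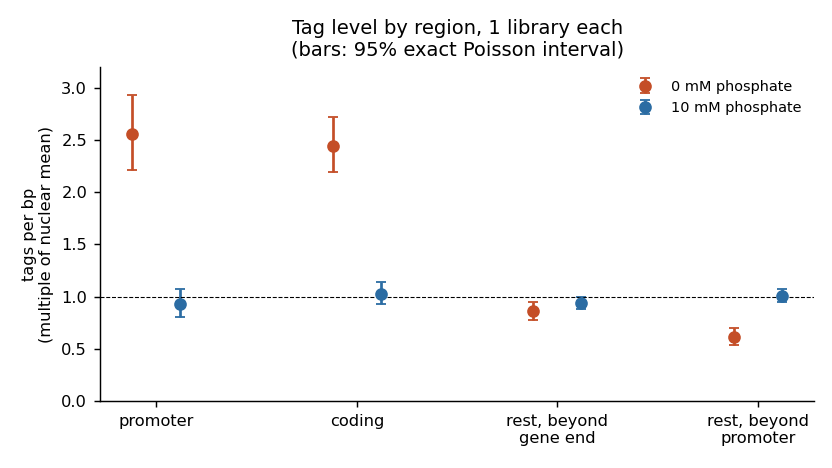
Tags per bp in 4 regions of the PHO8 window, as a multiple of the nuclear mean of each library, with 95% exact Poisson intervals and 1 library per condition. In starvation the promoter stood at 2.55 and the coding span at 2.44, while in high phosphate all 4 regions lay between 0.935 and 1.03.

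The rest of the window did not share this excess. Outside the promoter and coding spans, 644 starvation tags and 2170 high phosphate tags were counted, or 0.748 and 0.972 times the nuclear mean, with a log2 ratio of −0.38 (−0.51 to −0.25). On the side of the gene's end, towards DIG2, the next gene in the table and an inhibitor in the mating and filamentation pathways, the log2 ratio was −0.12 (−0.29 to 0.042). On the side beyond the promoter span it was −0.71 (−0.91 to −0.51). Nuclear 1 kb bins had a median log2 ratio of −0.23 and nuclear windows of 13 kb one of −0.055. The gene-end side lay between these medians, and its interval included both. The other side lay below both. Nuclear tiles of the length of these sides were not counted. The odds of a promoter tag against a tag from the rest were 3.54 times as high in starvation as in high phosphate, a log2 odds ratio of 1.83 (1.51 to 2.15). This last comparison is made within the locus and does not depend on how the libraries were scaled.

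The window as a whole hid these differences of opposite sign. Its log2 ratio was 0.18 (0.076 to 0.27), with 1.10 and 0.976 times the nuclear mean in starvation and high phosphate. Among 912 nuclear windows of the same length, 75.0% had a lower ratio.

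Tags of both strands, which come from opposite ends of the fragments, gave the same directions at the promoter and coding spans. The plus-strand tags of the promoter, 59 in starvation and 75 in high phosphate, gave a log2 ratio of 1.03 (0.51 to 1.54). Minus-strand tags numbered 144 in starvation, and their log2 ratio was 1.66 (1.30 to 2.03). Over the coding span the log2 ratio was 1.27 (0.96 to 1.58) from plus-strand tags and 1.23 (0.93 to 1.53) from minus-strand tags. The strands are parts of the same library and not replicates. More of the promoter tags lay on the minus strand in both libraries.

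Large differences of this kind occurred at many places in these libraries, and PHO8 was in the upper tail of them. Of 11901 nuclear tiles with the length of the promoter span, 98.7% had a lower log2 ratio than the PHO8 promoter. The tiles had a median of −0.23, with the 5th and 95th percentiles at −1.13 and 1.11. Of 6754 tiles with the length of the coding span, 98.3% had a lower ratio than PHO8. By level, 97.4% of the promoter-length tiles stood lower than the PHO8 promoter in starvation, and 29.5% in high phosphate. The starvation library was the more uneven over the whole genome. The coefficient of variation of tags per 1 kb bin was 55.9% for starvation against 24.1% for high phosphate, and the part of this difference in the PHO8 result was not tested.

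**Figure D2:**
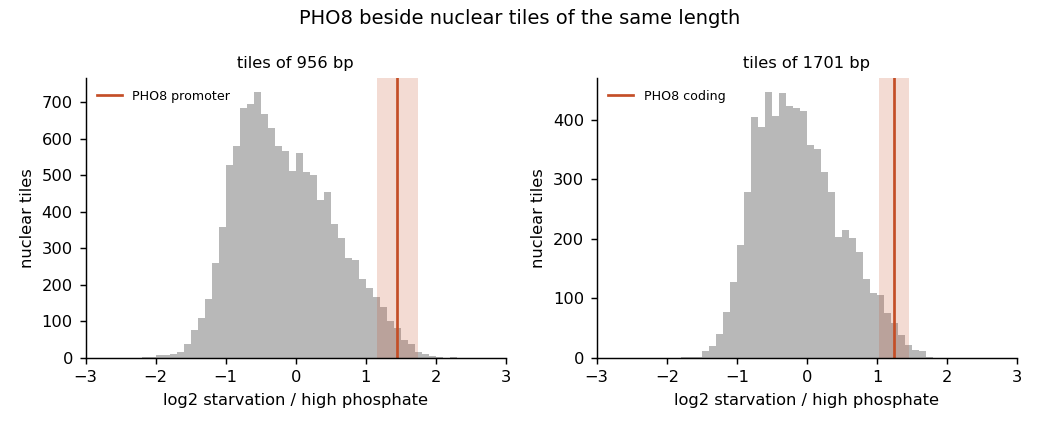
Distribution over nuclear tiles of the log2 ratio between the libraries (starvation over high phosphate), for tiles of the length of the PHO8 promoter span (left, 956 bp) and coding span (right, 1701 bp), tiles with at least 100 tags. The vertical line and band give PHO8 and its 95% exact interval: 1.45 for the promoter, above 98.7% of tiles, and 1.25 for the coding span, above 98.3%.

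Within the window, the excess in starvation in bins of 1 kb covered the gene, faded past the gene's end and stopped abruptly upstream. The bin from 1420001 to 1421000, which holds most of the promoter span, contained 243 starvation and 207 high phosphate tags, and its log2 ratio was the highest of the 13 bins, 1.61 (1.33 to 1.88). The bin from 1419001 to 1420000, within the coding span, counted 200 and 223 tags, with a log2 ratio of 1.22 (0.94 to 1.50). Those were the 2 bins of 13 at least 2-fold higher in starvation, beside 6.44% of nuclear 1 kb bins. No bin of the window was at least 2-fold lower, beside 9.4% of nuclear bins.

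The neighbouring bin from 1418001 to 1419000, which reaches past the end of the gene, had a log2 ratio of 0.77 (0.44 to 1.09) from 132 and 201 tags. On the upstream side the ratio turned within 1 bin: 39 and 161 tags from 1421001 to 1422000 gave −0.67 (−1.21 to −0.16). All 5 bins on that side were below 0, beside 60.9% of nuclear 1 kb bins. The lowest, from 1424001 to 1425000, counted 55 and 269 tags, with a log2 ratio of −0.91 (−1.36 to −0.49). The high phosphate counts varied little over the 13 bins, from 161 to 269 tags, while the starvation counts ran from 39 to 243. Outside the window, 2 kb before its left border, the bin from 1410001 to 1411000 was higher in starvation still, with 273 and 174 tags. The bins to each side of it, with 148 and 182 and with 229 and 279 tags, were also at least 2-fold higher. Right of the window, so were the bins from 1429001 to 1430000 (217 and 214 tags) and 1430001 to 1431000 (197 and 200 tags). Both had higher ratios than the coding bin from 1419001 to 1420000. The other flanking bins counted were within 2-fold, with log2 ratios from −0.46 to 0.66. The excess was therefore not confined to PHO8.

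Bins of 200 bp placed the contrast more closely. Of 65 such bins, 13 were at least 2-fold higher in starvation and 22 at least 2-fold lower, beside 13.2% and 26.9% of nuclear bins of that size. Of the 13 bins centred in the promoter or coding span, 10 were higher, 0 were lower and 3 were within 2-fold. Of the 24 bins beyond the promoter span, 0 were higher and 12 were lower, though for only 6 of those 12 did the counting interval lie below 0. Of the 28 bins beyond the gene's end, 3 were higher and 10 lower. The higher bins thus lay mostly over PHO8, and the 3 outside it stood apart from the rest.

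**Figure D3:**
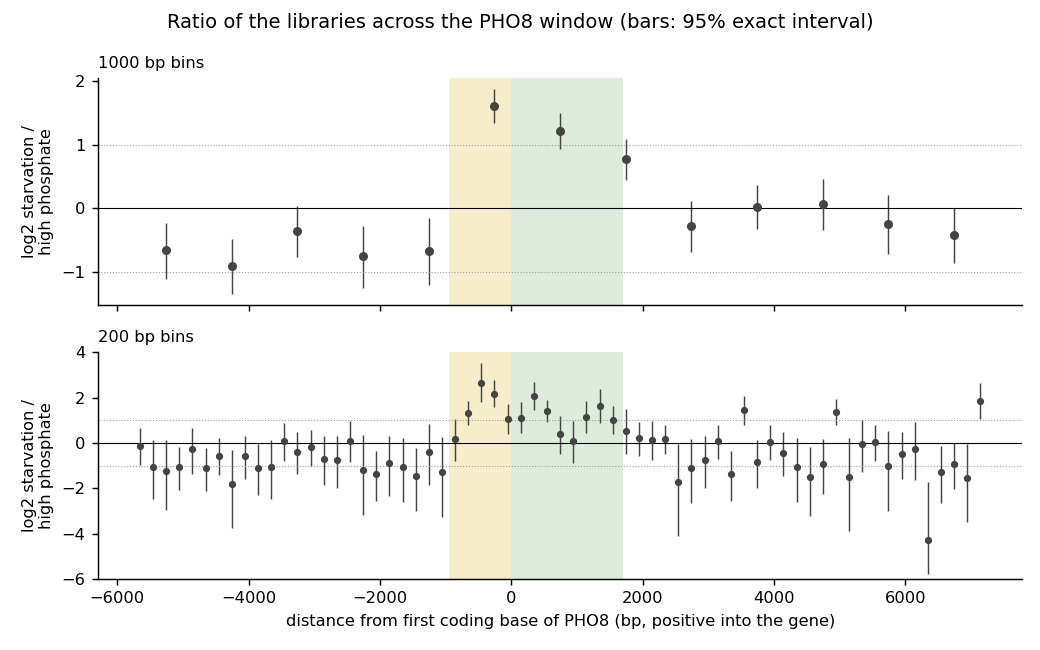
Log2 ratio of starvation over high phosphate in 1 kb bins (top) and 200 bp bins (bottom) against the distance from the first coding base of PHO8, with 95% exact intervals (1 of them runs past the lower edge of the 200 bp panel). Yellow marks the promoter span and green the coding span. The ratio reaches 1.61 in 1 kb bins and 2.63 in 200 bp bins, both in bins centred upstream of the gene. Of the 13 bins of 200 bp centred in the shaded spans, 10 exceed 1.

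Within the promoter span the excess was concentrated 200 to 600 bp upstream of the first coding base. The first 200 bp upstream held 23 starvation tags and 39 high phosphate tags, with a log2 ratio of 0.61 and an interval that included 0 (−0.20 to 1.39). From −201 to −400 bp the counts were 68 and 40, or 4.09 and 0.926 times the nuclear mean, with a log2 ratio of 2.14 (1.56 to 2.74). From −401 to −600 bp they were 72 and 43, or 4.33 and 0.996 times the mean, with a log2 ratio of 2.12 (1.55 to 2.70). The level in starvation was thus about the same in both of these tiles, 4.41 and 4.34 times that of high phosphate.

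Farther upstream the libraries drew together. From −601 to −800 bp there were 25 and 34 tags, with a log2 ratio of 0.93 (0.13 to 1.72). From −801 to −956 bp there were 15 and 37 tags, with a log2 ratio of 0.073 (−0.90 to 0.97). The next gene in the table on this side is CWC21, which encodes a splicing factor. Its borders in the build of the tags were not used here, so some of the promoter span may lie within that gene.

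Along the coding span the contrast was uneven. The first 200 bp held 46 and 35 tags, a log2 ratio of 1.77 (1.10 to 2.45), and the next 200 bp held 59 and 46, a log2 ratio of 1.73 (1.15 to 2.32). The tile from 401 to 600 bp held the most tags of the gene in both libraries, 66 and 63, with a log2 ratio of 1.44 (0.92 to 1.96). In 3 of the 9 tiles the counting interval included 0: from 801 to 1000 bp, where 11 and 34 tags gave a log2 ratio of −0.25 (−1.38 to 0.76), from 1201 to 1400 bp, where 12 and 28 tags gave 0.15 (−0.96 to 1.18), and from 1601 to 1701 bp, where 16 and 33 tags gave 0.33 (−0.63 to 1.23). Between the last 2 of these lay another stretch of excess, from 1401 to 1600 bp, where 63 and 48 tags gave a log2 ratio of 1.77 (1.20 to 2.34).

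**Figure D4:**
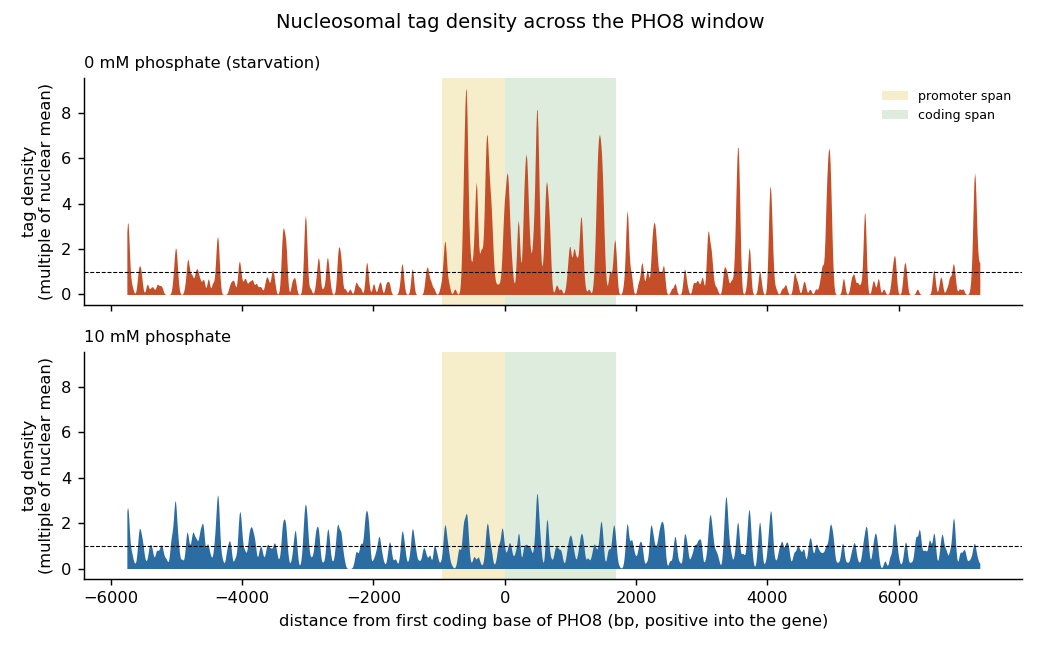
Density of moved tags, smoothed with a Gaussian SD of 20 bp and divided by the nuclear mean of the library, against the distance from the first coding base of PHO8 over the 13 kb window, for starvation (top) and high phosphate (bottom). In starvation the tallest peak of the window, at 9.14 times the mean, stands over the promoter span and the next over the coding span, while in high phosphate no peak of the window exceeds 3.34.

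Peaks of the smoothed tag density, taken as dyads (the midpoints of nucleosomes), numbered 4 in the promoter span of each library. In the coding span there were 9 in starvation and 7 in high phosphate. Positions are counted from the first coding base, negative upstream, and share the border uncertainty of about 50 bp, which is the same for both libraries. Dyads were called above the nuclear mean of their own library, so their own heights describe them and test nothing.

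At 3 places upstream of PHO8 the libraries had a dyad at nearly the same position. Starvation had dyads at −273, −592 and −912 bp, and high phosphate at −266, −586 and −911 bp. In starvation all 4 promoter dyads had a plus-strand and a minus-strand peak within 20 bp, but in high phosphate only 1 of 4 did. The nearest plus-strand peak lay 167 bp from the high phosphate dyad at −266 bp and 39 bp from the one at −586 bp. With high phosphate thinned to the nuclear total of starvation, the dyad at −586 bp was called at −630 bp, 38 bp from the starvation dyad, and 2 of the 4 dyads matched within 20 bp. At −592 bp the peak stood at 9.14 times the nuclear mean in starvation, taller than 98.6% of starvation dyads, and at 2.41 in high phosphate. Within 40 bp of it lay 53 starvation tags and 42 high phosphate tags. The high phosphate dyad at −586 bp, with a height of 2.44, was taller than 76.2% of high phosphate dyads. At −273 bp the heights were 7.09 and 1.96, and 45 and 30 tags lay within 40 bp. At −912 bp they were alike, 2.37 and 1.94, with 12 and 28 tags. The shared positions thus went with a difference in height at the 2 dyads nearer the gene and with little at the farthest.

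The fourth promoter dyad was called at different places. In starvation it lay at −435 bp with a height of 4.95, between the dyads at −273 and −592 bp, and 26 tags lay within 40 bp. High phosphate held 9 tags there and stood at 0.419 times the nuclear mean, so it had a trough where starvation had a peak. The log2 ratio at this place was 2.91 (1.77 to 4.18), the highest of the 13 starvation dyads, though the place was chosen for being a peak in starvation. In high phosphate the fourth dyad lay at −41 bp with a height of 1.80, where its plus-strand peak was 58 bp away from the joint one. The nearest starvation dyad was 77 bp further in, at 37 bp inside the coding span, with a height of 5.37 against 0.825 in high phosphate.

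**Figure D5:**
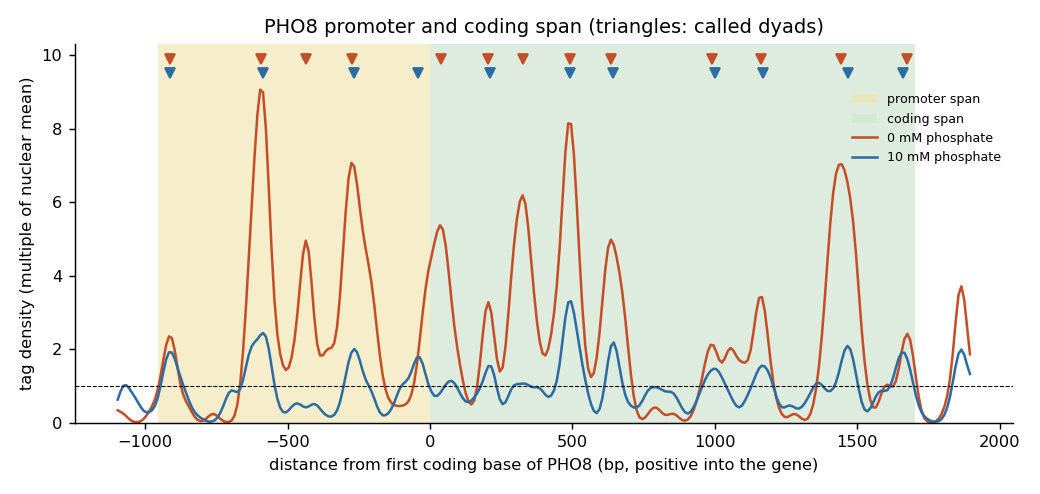
The same smoothed density around the promoter span (yellow) and coding span (green) of PHO8, starvation in orange and high phosphate in blue, with triangles at the called dyads and a dashed line at the nuclear mean. Joint peaks of both strands near −592, −273 and 490 bp lie within 20 bp of each other in the libraries and are taller in starvation. At −435 bp starvation stands at 4.95 and high phosphate at 0.419. Tall dyads are higher in starvation over the nuclear genome too, with 95th percentiles of 7.23 and 3.31.

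Low stretches, where the smoothed density stayed under 0.5 times the nuclear mean, covered 37.3% of the promoter span in high phosphate and 22.8% in starvation. Over the nuclear genome the order was the other way, with 26.7% in high phosphate and 48.0% in starvation. High phosphate thinned to the nuclear total of starvation had 37.6% in the promoter span and 30.2% over the nuclear genome. The limit is a multiple of the nuclear mean, so the promoter shares are not independent of the promoter levels given above. The most distant low stretch of the promoter span was common to both libraries: it ran from −677 to −850 bp in starvation, with 2 tags, and from −724 to −840 bp in high phosphate, with 3 tags. High phosphate had 4 more, between −129 and −188, −319 and −401, −414 and −456, and −477 and −530 bp. These held 2, 3, 3 and 3 high phosphate tags, and 5, 10, 20 and 6 starvation tags. Those stretches were picked for being low in high phosphate, so the lower count there is fixed by the choice. The tile from −401 to −600 bp, which was not so chosen, stood at 0.996 times the nuclear mean in high phosphate. Starvation had 1 other low stretch, of 44 bp, from −86 to −129 bp.

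Inside the gene the tallest dyad of each library lay at 490 bp (starvation) and 491 bp (high phosphate), with 8.24 and 3.34 times the nuclear mean. Over the nuclear genome the 95th percentile of dyad height was 7.23 in starvation and 3.31 in high phosphate. The tallest coding dyad stood above 97.4% of nuclear dyads in starvation and above 95.2% in high phosphate, so its rank was similar in both. Its plus-strand and minus-strand peaks lay within 1 bp of the joint peak in both libraries. It held 47 starvation tags and 48 high phosphate tags within 40 bp. Of the 9 coding dyads of starvation, 6 lay within 20 bp of a high phosphate dyad. The 3 others were at 37, 325 and 1441 bp, the last being 25 bp away from a high phosphate dyad at 1466 bp. At 325 bp starvation stood at 6.19 and high phosphate at 1.07.

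The coding span had 4 low stretches in starvation, each with a higher mean in high phosphate. Those at 144 to 146 bp and 1550 to 1570 bp were short, of 3 and 21 bp. The other 2 were longer gaps. Between 721 and 932 bp there were 3 starvation tags over 212 bp, with a mean of 0.230 times the nuclear level against 0.669 in high phosphate. Between 1221 and 1344 bp there was 1 starvation tag, with means of 0.203 and 0.512. High phosphate also dipped under 0.5 in part of both, at 878 to 929 and 701 to 737 bp in the first and at 1227 to 1312 bp in the second. In both places the starvation library was the lower, though these gaps were picked for being low in it. At 566 to 600, 1072 to 1097 and 1518 to 1552 bp the order was the other way: high phosphate fell under 0.5, with means of 0.346, 0.446 and 0.377, and starvation stood at 1.81, 1.73 and 1.15, in stretches picked for being low in high phosphate. Over the whole coding span 21.2% of bases were under 0.5 in starvation and 15.9% in high phosphate, or 20.7% in high phosphate thinned to the nuclear total of starvation.

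Agreement of positions at the locus was close to that of the genome. Over the whole window 34 of 48 starvation dyads, or 70.8%, lay within 20 bp of a high phosphate dyad, beside 74.9% of 41807 starvation dyads of the nuclear genome. Of 63 high phosphate dyads in the window, 34 matched, or 54.0%, beside 58.1% of 53837. As a description, the smoothed densities of the libraries at points 10 bp apart had a Pearson's r of 0.66 over 96 points of the promoter span and 0.68 over 171 points of the coding span, beside 0.49 over 1300 points of the window. Neighbouring points share tags through the smoothing.

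Depth and fragment size differed between the libraries and move with every contrast above. The nuclear genome held 83.2 tags per kb in starvation against 216 in high phosphate, and the strand offset, a measure of fragment length, was 155 and 142 bp. Repeat tags at 1 position and strand are absent from the files, which caps the count and compresses peaks more where more positions are filled. Over the nuclear genome 4.16% of position-strand combinations were filled in starvation and 10.8% in high phosphate, the deeper library, but at the promoter the order was the other way. In the promoter span 10.8% of position-strand combinations were filled in starvation and 9.26% in high phosphate. Correcting for filled positions gave a promoter log2 ratio of 1.57, and thinning high phosphate to the nuclear total of starvation gave 1.60. Moving starvation tags by 77 bp and high phosphate tags by 71 bp, to the middle of each library's own fragments, gave 1.48, and the fragments still differed in length under each of these settings. The part of fragment length in the result was not tested.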

How the data were processed

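Each deposited file lists the chromosome, position and strand of every uniquely placed tag, on sacCer1 per the labels' protocols. The read length and the aligner with its settings are not given in these sources, and a short sample label mentions sonication, which the protocols do not. No row repeats, and at 272 stretches of over 400 bp without tags the minus-strand positions most often began and ended 19 bp rightwards of plus-strand ones, so both were taken as 5′ ends. Tags were moved 73 bp towards the fragment middle, counted, and scaled to the tags on the 16 nuclear chromosomes. Ratios carry 95% exact conditional (Clopper-Pearson) intervals, and bins needed at least 20 tags over both libraries. Dyads were maxima of the density smoothed with a Gaussian (SD 20 bp) that exceeded the nuclear mean, with 120 bp or more between them. Groups came from sample titles. The locus, its borders and the measures were chosen with earlier results of these data known. The text names PHO8, the genes next to it in the R64 gene table (names only), the highest and lowest 1 kb bins, and the 200 bp tiles, dyads and troughs of the gene. The counting and dyad steps were tested on simulated data. Those had counting error only and evenly spaced dyads of equal tag number, so they do not speak for the weaker dyads here. Python 3.11.15, NumPy 2.4.6 and SciPy 1.17.1 were used. No sequence of the locus was used here, and no other phosphate gene was compared, because the only annotation at hand was of another build.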

Additional observations from a re-analysis of the deposited data

How the results depend on the processing

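No paired analysis was possible because a single library was sequenced under either condition, and no replicate could be left out. Of 64 alternative values, 60 kept their direction and stayed within the counting interval of the reported value (or, for counts, within 1.5 times), and no log2 ratio changed sign. The promoter log2 ratio ranged from 1.48 to 1.62, the coding ratio from 1.18 to 1.37, the ratio of the rest from −0.42 to −0.32 and that of the window from 0.17 to 0.24, over scaling to the median 10 kb bin (which raised every ratio by 0.061), unmoved tags, tags moved 77 and 71 bp, thinning, the correction for filled positions and, except for the window, borders moved 50 bp either way. The odds ratio of promoter to rest ranged from 1.85 to 1.99 and that of promoter to coding from 0.23 to 0.44 on the log2 scale. Thinning the deeper library lowered the count of 200 bp bins at least 2-fold lower in starvation from 22 to 12, and the cause was not tested. With 500 bp bins, of which there are fewer, 4 were lower and 4 higher, and with 100 bp bins 21 were higher. Over the promoter and coding spans together, 578 bases in starvation and 628 in high phosphate lay under 0.5 times the nuclear mean. With a smoothing SD of 30 bp the order of the libraries turned, to 448 and 442 bases. Tags moved 77 and 71 bp gave 610 and 627, and thinning gave 711 in high phosphate. The dyads there, 13 in starvation and 11 in high phosphate, became 12 and 12 with an SD of 30 bp, 13 and 12 with tags moved 77 and 71 bp, and 10 in thinned high phosphate. Dyads of the thinned map rest on few tags, and the match of the dyads at −592 and −586 bp was lost there.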
